A study of Mus musculus with 20 samples.

Results

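Matrix and stromal genes other than the collagen chains were compared between Lxrα-/- and wild-type mice in 2 tissues. The set holds 37 genes chosen by symbol, and all 37 were found among the 54532 genes of the count table. By role they are 3 small leucine-rich proteoglycans, 6 adhesive glycoproteins and matricellular proteins, 9 elastic fibre and microfibril proteins and 3 lysyl oxidases. The others are 5 matrix proteases and inhibitors, 4 basement membrane subunits, 4 contractile or intermediate filament proteins, and 1 growth factor with 2 receptors. RNA came from flash-frozen organs of male mice on the C57BL/6 background. The groups were Lxrα-/- kidney, wild-type kidney, Lxrα-/- liver and wild-type liver, with 5 libraries each. Lxrα is a nuclear receptor for oxysterols, encoded by Nr1h3, that activates lipogenic genes and genes that export cholesterol. The labels give the genotype and name no treatment, and the deleted exons, the ages and the diet are not given in the sources used here. Titles number the Lxrα-/- mice from 1 to 5, and those of wild type 1, 3, 4, 5 and 6. Values per library follow that order throughout.

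The interstitial matrix is made mostly by fibroblasts, pericytes and smooth muscle, and in liver by stellate cells. Collagen fibrils are decorated by small proteoglycans, elastin is laid down on a scaffold of fibrillin microfibrils, and lysyl oxidases crosslink both. Laminins and nidogen form the sheet on which tubule, capillary and glomerular cells rest, while metalloproteases and their inhibitors control turnover. Transforming growth factor beta and platelet-derived growth factor are the best-known inducers of matrix production in both organs, and hepatocytes add the plasma form of fibronectin.

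Lxrα-/- kidneys had 26590469 to 32033103 counts per library, and wild-type kidneys 23421561 to 32221055. Lxrα-/- livers had 23863994 to 35376342 counts, and wild-type livers 25502268 to 31790913. Nr1h3 had 99.4 to 157 CPM (counts after library size and TMM scaling) in Lxrα-/- kidneys, against 49.6 to 55.03 CPM in wild-type kidneys. It had 145 to 189.5 CPM in Lxrα-/- livers, against 85.48 to 119.6 CPM in wild-type livers. A count per gene does not tell deleted exons from kept ones, so these higher values check no label. Summed proximal tubule markers were 46160 to 60660 CPM in Lxrα-/- kidneys, 26850 to 41700 CPM in wild-type kidneys and at most 3079 CPM in any liver. Summed hepatocyte markers were 86650 to 103900 CPM in Lxrα-/- livers, 108900 to 141400 CPM in wild-type livers and at most 756.7 CPM in any kidney. Wild-type kidney 3 stood apart, with 50.8% of its counts on mitochondrially encoded genes, against 7.21% in wild-type kidney 1 and 12.6% to 21.1% in the other kidneys. Calls that were lost without either or both of wild-type kidneys 1 and 3 are named beside the result.

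In kidney, 17 of the 37 genes were lower in Lxrα-/- mice and none was higher (edgeR's quasi-likelihood test, Benjamini-Hochberg adjusted p under 0.05 over all genes tested). That is 45.9% of the set, beside 1.87% of all 16500 genes tested that were lower and 0.394% that were higher. The set was chosen with earlier results of these data known, so such contrasts with all genes are descriptions, not independent evidence. Their median log2 fold change (log2 of Lxrα-/- over wild type) was -1.13, against -0.07 over all genes, and 36 of the 37 values were negative. At an unadjusted p under 0.05, 32 of 37 were lower and 0 higher, beside 14.0% of all genes that were lower and 5.81% that were higher. No other test run called a member higher except limma voom with quality weights, which called Timp3. In 17 of the 37 every Lxrα-/- kidney lay below every wild-type kidney, beside 4.13% of all genes. In liver, 33 genes passed the filter on low counts, and 5 of them (15.2%) were lower and none was higher. Of all 14822 genes tested in liver, 4.08% were lower and 1.94% were higher. The median in liver was -0.44, against -0.003 over all genes, and 28 of 33 values were negative. In liver 3 genes had every Lxrα-/- liver below every wild-type liver, beside 4.53% of all genes. At an unadjusted p under 0.05, 12 of 33 members were lower in liver and 0 higher, beside 11.5% of all genes lower and 8.76% higher. No member was called higher in liver by any other test run. Sparc, Nid1, Lamc1 and Eln were lower in both tissues, Postn in liver, and 13 genes in kidney without a call in liver. Of these 13, Lox was not tested in liver. These are bulk tissues, so fewer cells of a type and less RNA per cell cannot be told apart.

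**Figure D1:**
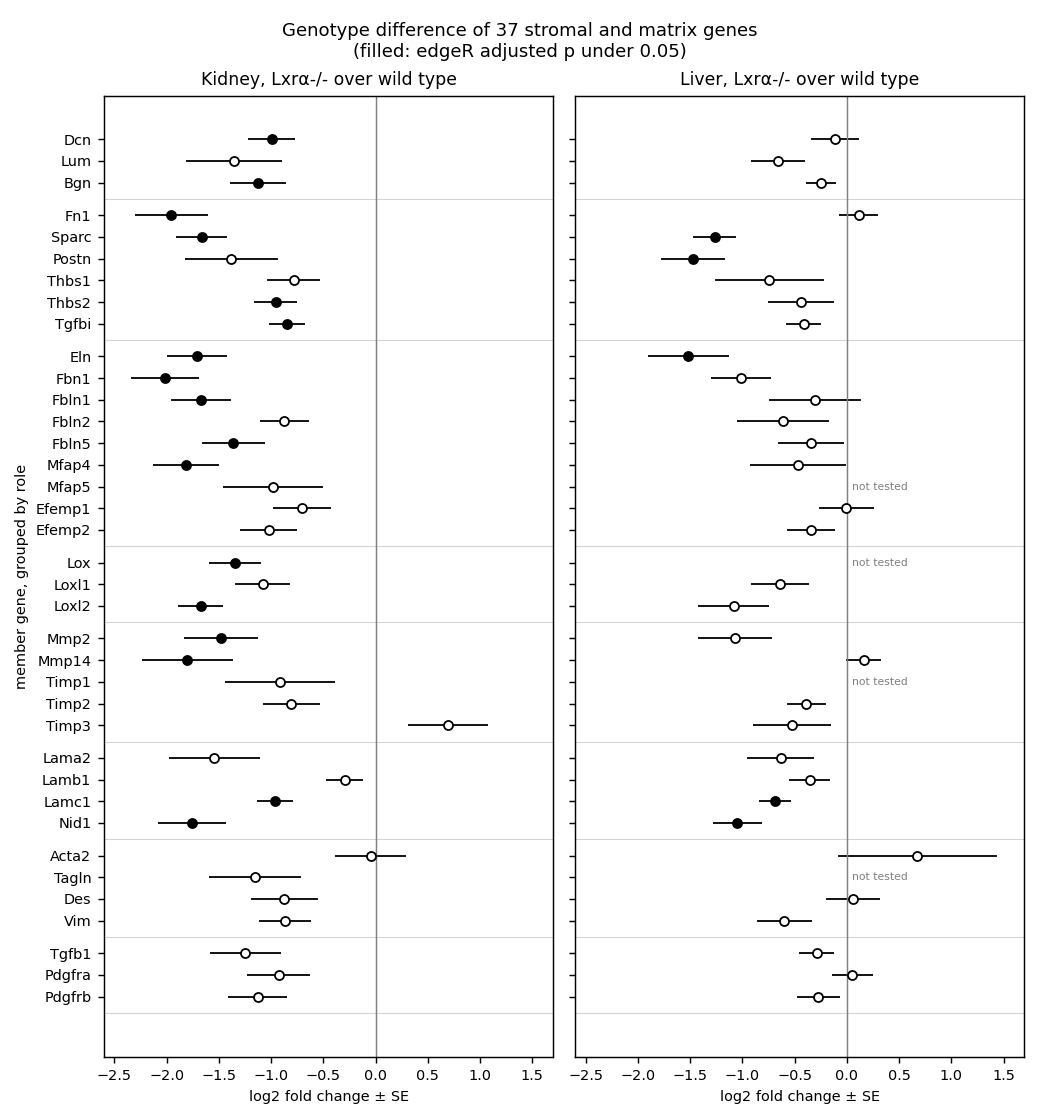
Log2 fold change of Lxrα-/- over wild type with its standard error (x axis) for the 37 genes, grouped by role (y axis), in kidney on the left and liver on the right, with filled points for an edgeR adjusted p under 0.05. All kidney points but Timp3 lie left of 0, with 17 filled, and 5 of the 33 liver points are filled.

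Promoters are shown for Sparc and Nid1, which were lower in both tissues, and for Timp3, the single member with a positive kidney fold change. They are RefSeq windows of 250 bases before to 50 bases after a gene start on GRCm38.p6 (mm10), read on the gene's strand, with capitals for the GC box (GGGCGG on either strand).
Sparc, chr11:55420031-55420330, minus strand: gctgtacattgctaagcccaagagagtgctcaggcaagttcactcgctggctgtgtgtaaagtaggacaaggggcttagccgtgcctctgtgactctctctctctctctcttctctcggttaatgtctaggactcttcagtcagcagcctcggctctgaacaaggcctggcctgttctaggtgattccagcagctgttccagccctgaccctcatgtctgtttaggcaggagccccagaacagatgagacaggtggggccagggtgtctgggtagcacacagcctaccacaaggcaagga
Nid1, chr13:13437352-13437651, plus strand: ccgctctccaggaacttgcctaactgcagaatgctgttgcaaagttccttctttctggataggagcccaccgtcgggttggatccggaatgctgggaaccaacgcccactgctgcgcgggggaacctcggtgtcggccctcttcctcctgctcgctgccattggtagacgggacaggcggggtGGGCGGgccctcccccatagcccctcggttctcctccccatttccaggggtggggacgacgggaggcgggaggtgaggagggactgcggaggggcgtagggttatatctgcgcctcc
Timp3, chr10:86300162-86300461, plus strand: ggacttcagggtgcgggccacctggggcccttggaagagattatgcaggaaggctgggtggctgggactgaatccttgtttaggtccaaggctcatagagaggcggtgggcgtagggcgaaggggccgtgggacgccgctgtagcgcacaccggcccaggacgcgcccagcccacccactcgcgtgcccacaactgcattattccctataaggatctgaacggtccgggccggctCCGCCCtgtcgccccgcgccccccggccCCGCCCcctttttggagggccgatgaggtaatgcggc
The Sparc window holds no GC box, that of Nid1 holds 1 and that of Timp3 holds 2, and their GC contents are 55.3%, 64.7% and 67.0%. Of the 37 genes, 23 have a promoter in the RefSeq table, with 28 entries. A GC box is in 19 of these 28 (67.9%), beside 35.7% of all 32851 promoters in the table. The AP-1 site TGANTCA is in 1 entry, that of Efemp1 (3.57%, beside 7.81% of all), and TATAAA is in 3, those of Postn, Thbs2 and Vim (10.7%, beside 13.6%). The CArG box, the site of serum response factor in contractile genes, is in 1 entry, that of Lama2 (3.57%, beside 1.63%). The DR4 element, the repeat to which LXR-RXR pairs bind, is in none (0 of 28, beside 0.0152% of all). With only 5 matches in all 32851 promoters, a count of 0 in 28 does not tell whether LXR binds near the members. All motifs were searched on both strands, and a match describes the sequence alone.

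The small leucine-rich proteoglycans coat collagen fibrils and set their width. Bgn and Dcn were lower in Lxrα-/- kidney, and neither they nor Lum were called in liver. Dcn, decorin (mm10 chromosome 10, positions 97479609 to 97518143), had 15.4, 25.3, 20.7, 16.2 and 10.53 CPM in Lxrα-/- kidneys, against 29.8, 34.97, 42.4, 40.4 and 28.1 CPM in wild-type kidneys. The groups did not overlap (log2 fold change -0.995, SE 0.22, edgeR adjusted p = 0.0370). Bgn, biglycan, had 56.3, 49.95, 57.6, 45.8 and 39.2 CPM in Lxrα-/- kidneys, against 114, 136, 149.8, 97.2 and 46.47 CPM in wild-type kidneys. Wild-type kidney 6 lay among the Lxrα-/- values, and the other 4 wild-type kidneys above all of them (log2 fold change -1.13, SE 0.26, edgeR adjusted p = 0.0440). Neither call was firm: that of Dcn was kept in 3 of 10 fits without 1 library (without wild-type kidney 3 or 6 or Lxrα-/- kidney 2; highest edgeR adjusted p = 0.112), and that of Bgn in 1 of 10 (without wild-type kidney 6; highest edgeR adjusted p = 0.137). Without wild-type kidneys 1 and 3 together, Bgn stood at -0.98, SE 0.27, edgeR adjusted p = 0.0704 and was not called, and limma-trend called neither gene. Lum, lumican, was scarce in kidney at 0.240, 0.768, 0.740, 0.377 and 0.270 CPM in Lxrα-/- kidneys, against 1.57, 0.323, 1.35, 1.30 and 1.53 CPM in wild-type kidneys. Wild-type kidney 3 sat inside the Lxrα-/- range for Lum, whose difference was not called (log2 fold change -1.36, SE 0.46, edgeR adjusted p = 0.134) but was without that library (-1.56, SE 0.36, edgeR adjusted p = 0.0434). Lum was not called without wild-type kidneys 1 and 3 together (edgeR adjusted p = 0.0517). Dcn averaged 89.04 ± 27.6 CPM in Lxrα-/- livers and 96.2 ± 25.7 CPM in wild-type livers (SD, n = 5 each). Bgn averaged 54.2 ± 8.70 CPM in Lxrα-/- livers and 64.3 ± 10.46 CPM in wild-type livers. Lum averaged 4.74 ± 1.90 CPM in Lxrα-/- livers and 7.48 ± 2.13 CPM in wild-type livers.

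Among adhesive glycoproteins and matricellular proteins, 4 of 6 were lower in Lxrα-/- kidney (Sparc, Fn1, Thbs2 and Tgfbi) and 2 of 6 in Lxrα-/- liver (Sparc and Postn). Over all genes tested, 1.87% were called lower in kidney and 4.08% in liver. Sparc, a calcium- and collagen-binding glycoprotein (ENSMUSG00000018593, mm10 chromosome 11, positions 55394500 to 55423183), was the most abundant of the 37 genes per length in wild-type kidney. It had 79.6, 118, 106, 74.3 and 49.2 CPM in Lxrα-/- kidneys, against 209.7, 259.6, 325, 335 and 228 CPM in wild-type kidneys. The highest Lxrα-/- kidney stayed well under the lowest wild-type one (log2 fold change -1.67, SE 0.25, edgeR adjusted p = 0.00638). Liver showed the same order, with 38.2, 52.1, 65.3, 38.46 and 47.4 CPM in Lxrα-/- livers, against 91.8, 131, 76.7, 154 and 127 CPM in wild-type livers. Again the groups were separate (log2 fold change -1.27, SE 0.20, edgeR adjusted p = 0.00276), and the call held in each of the 10 kidney fits and each of the 10 liver fits that left out 1 library.

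Fn1, fibronectin, the adhesive glycoprotein of the early matrix (ENSMUSG00000026193, mm10 chromosome 1, positions 71585520 to 71653200), had 18.48, 13.7, 19.1, 14.1 and 13 CPM in Lxrα-/- kidneys, against 50.2, 134, 47.04, 43.4 and 29.49 CPM in wild-type kidneys. All Lxrα-/- kidneys lay below all wild-type kidneys, and wild-type kidney 3 stood far above the rest of its group (log2 fold change -1.96, SE 0.35, edgeR adjusted p = 0.0136). Without wild-type kidney 3 the difference was smaller and still called (-1.41, SE 0.17, edgeR adjusted p = 0.00241), and it was lost without Lxrα-/- kidney 4 or 5 (highest edgeR adjusted p = 0.0559). Fn1 in liver was the most abundant member per length, at 1097, 1012, 856, 1595 and 1397 CPM in Lxrα-/- livers, against 837, 1060.0, 1107, 1201 and 1305 CPM in wild-type livers. Those groups overlapped throughout (log2 fold change 0.11, SE 0.19, edgeR adjusted p = 0.787).

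Postn, periostin, a matricellular protein of injured and remodelling stroma (ENSMUSG00000027750, mm10 chromosome 3, positions 54361109 to 54391037), was called in liver. It had 5.17, 5.24, 9.26, 2.66 and 4.28 CPM in Lxrα-/- livers, against 11.6, 13.45, 9.18, 22.1 and 17.04 CPM in wild-type livers. Lxrα-/- liver 3 reached the level of wild-type liver 4, and the other Lxrα-/- livers lay below all wild-type livers (log2 fold change -1.47, SE 0.31, edgeR adjusted p = 0.0130). The kidney values of Postn were 1.37, 2.97, 2.40, 0.979 and 0.473 CPM in Lxrα-/- mice, against 5.53, 3.87, 3.63, 6.23 and 2.05 CPM in wild-type mice. The kidney fold change was of similar size with a larger error and was not called (log2 fold change -1.38, SE 0.44, edgeR adjusted p = 0.121), and the difference between the tissues was not called (edgeR adjusted p = 0.965).

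Tgfbi, an adhesive protein named for its induction by transforming growth factor beta, had 9.88, 8.94, 9.76, 8.32 and 6.21 CPM in Lxrα-/- kidneys, against 13.2, 15.6, 18.9, 14.1 and 16 CPM in wild-type kidneys. The groups did not overlap, with a fold change among the smallest of the called members (log2 fold change -0.85, SE 0.17, edgeR adjusted p = 0.0272). Thbs2, a thrombospondin, had 2.71, 4.92, 3.70, 4.33 and 3.95 CPM in Lxrα-/- kidneys, against 5.70, 8.18, 7.64, 8.53 and 8.10 CPM in wild-type kidneys, again without overlap (log2 fold change -0.96, SE 0.21, edgeR adjusted p = 0.0338). Its relative Thbs1, which can activate latent transforming growth factor beta, ranged over 19.04 to 36.7 CPM in Lxrα-/- kidneys, against 35.9 to 76.52 CPM in wild-type kidneys, where kidney 1 was highest, and was not called (log2 fold change -0.79, SE 0.25, edgeR adjusted p = 0.119). The calls of Tgfbi and Thbs2 were each lost in 6 of 10 fits without 1 library, those without wild-type kidney 4 or 5 or Lxrα-/- kidney 1, 3, 4 or 5 (highest edgeR adjusted p = 0.0864 for Tgfbi and 0.0904 for Thbs2).

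The elastic fibre and microfibril genes were the largest role group, with 5 of 9 lower in Lxrα-/- kidney (Eln, Fbn1, Fbln1, Fbln5 and Mfap4), a median of -1.36 and 9 of 9 values negative. In liver 1 of the 8 tested, Eln, was lower, and the median was -0.41. Over all genes tested, 1.87% were called lower in kidney and 4.08% in liver. Fbn1, fibrillin, the backbone of microfibrils (mm10 chromosome 2, positions 125300594 to 125507993), had 6.24, 6.11, 7.36, 5.08 and 4.53 CPM in Lxrα-/- kidneys, against 24.9, 47.3, 17.7, 16.6 and 12.4 CPM in wild-type kidneys. Its fold change was the lowest of the 37 genes, and the groups were separate (log2 fold change -2.02, SE 0.32, edgeR adjusted p = 0.0102). Without wild-type kidney 3, which was the highest, the value was -1.58, SE 0.20, edgeR adjusted p = 0.00302. Eln, elastin (ENSMUSG00000029675, mm10 chromosome 5, positions 134702593 to 134747323), had 7.85, 7.71, 14.50, 12.1 and 6.48 CPM in Lxrα-/- kidneys, against 36.8, 44.4, 26.6, 35.1 and 16.2 CPM in wild-type kidneys. Only wild-type kidney 6 came near the Lxrα-/- range, and no values overlapped (log2 fold change -1.71, SE 0.29, edgeR adjusted p = 0.0120). The liver values of Eln were 2.13, 3.31, 8.43, 4.02 and 4.05 CPM in Lxrα-/- mice, against 6.36, 18, 6.15, 15.9 and 16.2 CPM in wild-type mice. Lxrα-/- liver 3 lay above wild-type livers 1 and 4 (log2 fold change -1.52, SE 0.39, edgeR adjusted p = 0.0354), and the liver call was lost in 7 of 10 fits without 1 library, those without wild-type liver 3, 5 or 6 or Lxrα-/- liver 1, 2, 4 or 5 (highest edgeR adjusted p = 0.0901).

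Mfap4, a microfibril-associated glycoprotein, had 1.34, 1.501, 1.63, 0.678 and 0.743 CPM in Lxrα-/- kidneys, against 3.43, 3.497, 5.13, 5.63 and 3.06 CPM in wild-type kidneys. The groups did not overlap (log2 fold change -1.81, SE 0.31, edgeR adjusted p = 0.0123). Its locus overlaps Mapk7 on the other strand, which averaged 204.4 counts per kidney library, and since the use of strand in counting is not given, the share of reads from Mapk7 is uncertain. Fbln1, a fibulin found on elastic fibres and basement membranes, had 1.78, 3.63, 3.85, 2.15 and 2.33 CPM in Lxrα-/- kidneys, against 10.7, 10.2, 10.7, 7.08 and 5.17 CPM in wild-type kidneys, with no overlap (log2 fold change -1.67, SE 0.29, edgeR adjusted p = 0.0123). Fbln5, a fibulin needed for elastic fibre assembly, had 73.8, 56.2, 63.98, 40.9 and 25.8 CPM in Lxrα-/- kidneys, against 90.02, 205, 151, 137 and 87.8 CPM in wild-type kidneys. These groups were separate too (log2 fold change -1.36, SE 0.30, edgeR adjusted p = 0.0361), although the call was kept in only 3 of 10 fits without 1 library, those without wild-type kidney 1, 3 or 6 (highest edgeR adjusted p = 0.112). Fbln2, another fibulin, also had every Lxrα-/- kidney below every wild-type kidney, at 3.14 to 5.27 CPM in Lxrα-/- kidneys, against 5.33 to 9.65 CPM in wild-type kidneys, and was not called (log2 fold change -0.87, SE 0.24, edgeR adjusted p = 0.0734). Efemp2, which acts with lysyl oxidase in elastin crosslinking, Efemp1 and Mfap5 had kidney fold changes of -1.03, -0.71 and -0.99 that were not called (edgeR adjusted p = 0.0689, 0.190 and 0.273).

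The lysyl oxidases, which oxidise lysines so that collagen and elastin chains can crosslink, were lower for 2 of 3 in Lxrα-/- kidney. Over all kidney genes tested, 1.87% were called lower. Loxl2 (ENSMUSG00000034205, mm10 chromosome 14, positions 69609068 to 69695834) had 4.56, 4.54, 4.85, 3.43 and 2.40 CPM in Lxrα-/- kidneys, against 12.2, 13.9, 14.8, 10.4 and 11.9 CPM in wild-type kidneys. The groups were far apart, and this was the smallest adjusted p of the set in kidney (log2 fold change -1.67, SE 0.22, edgeR adjusted p = 0.00273). Lox had 1.72, 2.37, 1.63, 1.96 and 1.18 CPM in Lxrα-/- kidneys, against 4.56, 5.81, 4.78, 4.27 and 3.15 CPM in wild-type kidneys, with no overlap (log2 fold change -1.35, SE 0.25, edgeR adjusted p = 0.0177). The call of Lox was lost without Lxrα-/- kidney 1, 3, 4 or 5 (highest edgeR adjusted p = 0.0568). Loxl1, the form tied most closely to elastin upkeep, fell just outside the threshold, at 8.32 ± 2.14 CPM in Lxrα-/- kidneys and 17.7 ± 6.04 CPM in wild-type kidneys (SD, n = 5 each; log2 fold change -1.08, SE 0.26, edgeR adjusted p = 0.0503). Loxl2 in liver averaged 1.84 ± 0.973 CPM in Lxrα-/- livers and 3.88 ± 1.17 CPM in wild-type livers, and neither it (log2 fold change -1.08, SE 0.34, edgeR adjusted p = 0.0821) nor Loxl1 (log2 fold change -0.64, SE 0.28, edgeR adjusted p = 0.221) was called.

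**Figure D2:**
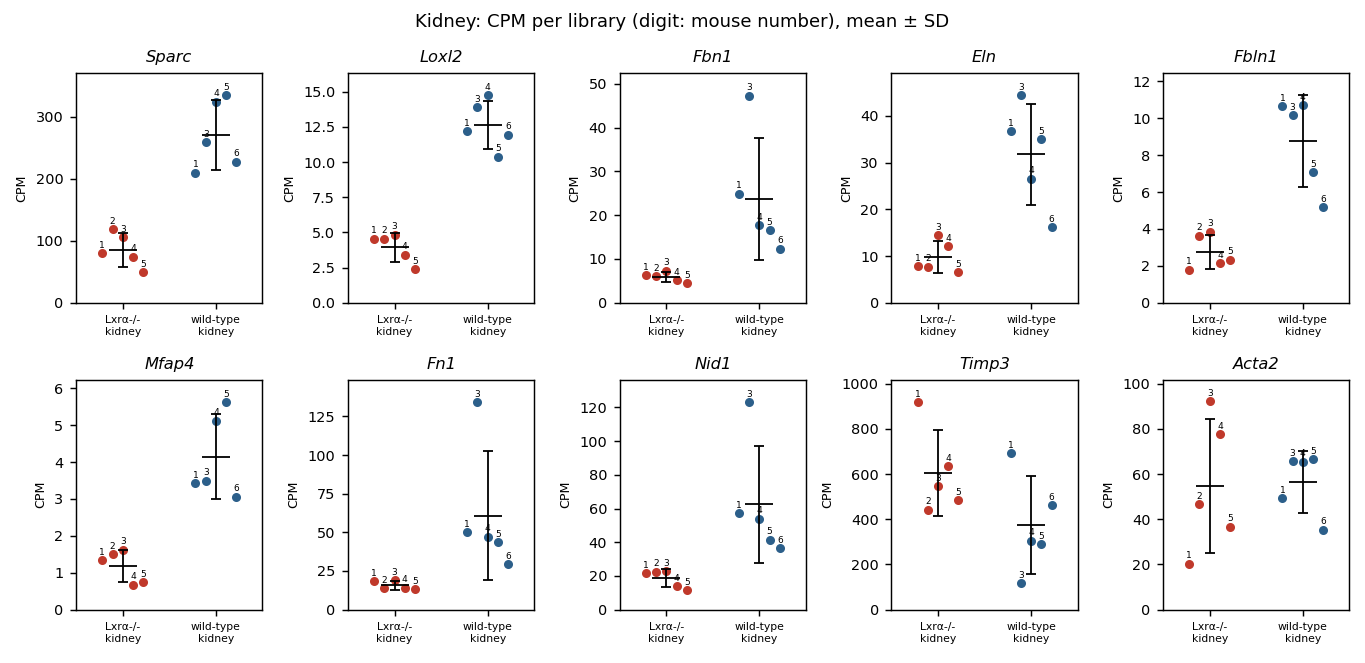
CPM per kidney library (y axis, each from 0) for 10 of the genes, Lxrα-/- kidneys on the left and wild-type kidneys on the right of each panel, with the mouse number at each point and bars for mean ± SD (n = 5). Sparc, Loxl2, Fbn1, Eln, Fbln1, Mfap4, Fn1 and Nid1 show no overlap between the groups, wild-type kidney 3 is high for Fn1, Fbn1 and Nid1 and low for Timp3, and Acta2 overlaps throughout.

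Of the matrix proteases and inhibitors, Mmp2 and Mmp14 were lower in Lxrα-/- kidney, and no inhibitor was called in either tissue. Mmp14, a membrane-anchored collagenase that also activates the Mmp2 proenzyme (ENSMUSG00000000957, mm10 chromosome 14, positions 54431612 to 54445364), had 6.17, 7.92, 4.25, 7.61 and 3.14 CPM in Lxrα-/- kidneys, against 13.6, 49.01, 17.7, 13.1 and 8.49 CPM in wild-type kidneys. The groups did not overlap, but wild-type kidney 3 was far above the rest (log2 fold change -1.80, SE 0.43, edgeR adjusted p = 0.0492). Without wild-type kidney 3 the fold change was -1.15, SE 0.28, edgeR adjusted p = 0.0507, so that the call was lost, and it was kept in 1 of 10 fits without 1 library, that without wild-type kidney 6 (highest edgeR adjusted p = 0.139). Mmp2, a gelatinase, had 3.12, 4.54, 4.85, 1.51 and 1.11 CPM in Lxrα-/- kidneys, against 8.54, 8.77, 8.64, 9.08 and 7.32 CPM in wild-type kidneys. Wild-type kidneys were closely grouped, and Lxrα-/- kidneys 4 and 5 were lowest (log2 fold change -1.48, SE 0.35, edgeR adjusted p = 0.0462). Its call was kept only without wild-type kidney 6 or Lxrα-/- kidney 2 (highest edgeR adjusted p = 0.118). Without wild-type kidneys 1 and 3 together, neither was called, at -1.17, SE 0.30, edgeR adjusted p = 0.0553 for Mmp14 and -1.47, SE 0.38, edgeR adjusted p = 0.0582 for Mmp2. The liver values of Mmp14 were 17.9, 22.01, 20.8, 28.3 and 34.1 CPM in Lxrα-/- mice, against 24.8, 21.9, 18.52, 18.9 and 26.1 CPM in wild-type mice, overlapping throughout (log2 fold change 0.16, SE 0.17, edgeR adjusted p = 0.655).

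Timp3, a metalloprotease inhibitor that stays bound to the matrix (ENSMUSG00000020044, mm10 chromosome 10, positions 86300372 to 86349506), was the only member whose kidney fold change was above 0. It had 919, 442, 547, 635 and 484 CPM in Lxrα-/- kidneys, against 692, 117, 305, 290.2 and 463 CPM in wild-type kidneys. The ranges overlapped, and wild-type kidney 3 was the lowest of the 10. The difference was not called by edgeR (log2 fold change 0.70, SE 0.38, edgeR adjusted p = 0.321), and was called with limma voom and quality weights (0.84, adjusted p = 0.0180). Syn3 lies on the other strand of the locus and averaged 225.3 counts per kidney library. Timp2, which takes part in the activation of Mmp2, averaged 23.7 ± 8.07 CPM in Lxrα-/- kidneys and 41.3 ± 13.99 CPM in wild-type kidneys (SD, n = 5 each; log2 fold change -0.81, SE 0.27, edgeR adjusted p = 0.139). Timp1, an inhibitor induced in injury, stayed at or under 0.733 CPM in Lxrα-/- kidneys and 1.85 CPM in wild-type kidneys (log2 fold change -0.91, SE 0.52, edgeR adjusted p = 0.337).

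Basement membrane subunits were lower in Lxrα-/- mice for Nid1 and Lamc1 in both tissues. Nid1, nidogen, which links the laminin and type IV collagen networks (ENSMUSG00000005397, mm10 chromosome 13, positions 13437551 to 13512269), had 21.47, 22.48, 22.9, 13.97 and 11.45 CPM in Lxrα-/- kidneys, against 57.3, 123, 53.9, 41.4 and 36.45 CPM in wild-type kidneys. The groups were separate, with wild-type kidney 3 highest (log2 fold change -1.76, SE 0.33, edgeR adjusted p = 0.0171). Without that library the value was -1.33, SE 0.22, edgeR adjusted p = 0.00990. The liver values of Nid1 were 7.30, 10.3, 10.4, 5.47 and 5.86 CPM in Lxrα-/- mice, against 11.8, 16.4, 11.49, 22.6 and 18.8 CPM in wild-type mice. No liver values overlapped (log2 fold change -1.05, SE 0.23, edgeR adjusted p = 0.0196). Lamc1, the gamma chain of most laminins (ENSMUSG00000026478, mm10 chromosome 1, positions 153218922 to 153332786), had 24.45, 28.7, 22.9, 23.8 and 20.4 CPM in Lxrα-/- kidneys, against 62.6, 49.8, 43.3, 41.8 and 37.6 CPM in wild-type kidneys, with no overlap (log2 fold change -0.97, SE 0.17, edgeR adjusted p = 0.0127). The liver values of Lamc1 were 9.62, 11.3, 12.2, 11.1 and 8.64 CPM in Lxrα-/- mice, against 14.4, 20.6, 13.3, 20.1 and 16.8 CPM in wild-type mice, also without overlap (log2 fold change -0.69, SE 0.15, edgeR adjusted p = 0.0167). The kidney calls of Nid1 and Lamc1 were lost without Lxrα-/- kidney 4 or 5 (highest edgeR adjusted p = 0.0688 and 0.0529). The liver call of Nid1 was lost without wild-type liver 6 (edgeR adjusted p = 0.0561), and that of Lamc1 without wild-type liver 3 (0.0522). Lamb1, the laminin beta chain, averaged 120.2 ± 19.9 CPM in Lxrα-/- kidneys and 148 ± 23.47 CPM in wild-type kidneys, a smaller difference that was not called (log2 fold change -0.30, SE 0.18, edgeR adjusted p = 0.352). Lama2, the alpha chain of muscle and stromal laminin, had a kidney fold change of -1.55 that was not called (edgeR adjusted p = 0.0817) and stood at -0.81, SE 0.22, edgeR adjusted p = 0.0743 without wild-type kidney 3.

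None of the contractile and intermediate filament genes was called in either tissue, with 3 of 4 lower in kidney and 1 of 3 lower in liver at an unadjusted p under 0.05. Over all genes tested, 14.0% were lower in kidney and 11.5% in liver at that threshold. Acta2, the actin of smooth muscle and of activated fibroblasts and stellate cells (ENSMUSG00000035783, mm10 chromosome 19, positions 34241090 to 34255336), had 20.3, 46.6, 92.3, 77.6 and 36.6 CPM in Lxrα-/- kidneys, against 49.4, 65.7, 65.51, 66.7 and 35.3 CPM in wild-type kidneys. Lxrα-/- kidneys held both the lowest and the highest value, and the groups overlapped throughout (log2 fold change -0.05, SE 0.34, edgeR adjusted p = 0.943). The liver values of Acta2 were 0.524, 1.64, 26.3, 3.82 and 3.66 CPM in Lxrα-/- mice, against 3.53, 4.37, 1.90, 7.34 and 5.23 CPM in wild-type mice. Lxrα-/- liver 3 was far above all others (log2 fold change 0.67, SE 0.76, edgeR adjusted p = 0.673), and without it the fold change was -0.88, SE 0.49, edgeR adjusted p = 0.334. In the same library the 7 smooth muscle markers summed to 37.3 CPM, the highest of the livers. The lowest Lxrα-/- liver had 5.13 CPM and wild-type livers had 8.11 to 16.3 CPM, and their part in the result was not tested. Vim, the intermediate filament of mesenchymal cells, ranged over 25.3 to 63.7 CPM in Lxrα-/- kidneys, against 55.9 to 91.1 CPM in wild-type kidneys (log2 fold change -0.87, SE 0.25, edgeR adjusted p = 0.0871). Des, the muscle and stellate cell filament, ranged over 6.76 to 9.28 CPM in Lxrα-/- kidneys, against 5.37 to 26.8 CPM in wild-type kidneys (log2 fold change -0.87, SE 0.32, edgeR adjusted p = 0.163). Tagln, a smooth muscle actin-binding protein, was read at 0.113 to 0.481 CPM in Lxrα-/- kidneys, against 0.363 to 0.915 CPM in wild-type kidneys (log2 fold change -1.15, SE 0.44, edgeR adjusted p = 0.181). Its locus overlaps Pcsk7 on the other strand (1248 counts on average per kidney library), so the source of these reads is uncertain.

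Tgfb1, Pdgfrb and Pdgfra, the growth factor and receptors of the set, had negative kidney fold changes and no call in either tissue, although all 3 were lower in kidney at an unadjusted p under 0.05. Over all kidney genes tested, 14.0% were lower at that threshold. Tgfb1, the main fibrogenic ligand, had 6.21, 4.71, 4.11, 3.73 and 4.25 CPM in Lxrα-/- kidneys, against 14.2, 13.7, 14.4, 9.08 and 3.28 CPM in wild-type kidneys. Wild-type kidney 6 was the lowest of the 10 libraries, and the other 4 wild-type kidneys were the highest (log2 fold change -1.25, SE 0.34, edgeR adjusted p = 0.0715). Pdgfrb, the receptor of pericytes and mesangial cells, had 20.51, 23.3, 29.3, 15.48 and 14.9 CPM in Lxrα-/- kidneys, against 49.4, 70.3, 46.3, 39.1 and 21.9 CPM in wild-type kidneys, and wild-type kidney 6 again lay inside the Lxrα-/- range (log2 fold change -1.13, SE 0.28, edgeR adjusted p = 0.0536). Pdgfra, the receptor of fibroblasts, ranged over 7.83 to 18.3 CPM in Lxrα-/- kidneys, against 10.9 to 31.7 CPM in wild-type kidneys (log2 fold change -0.93, SE 0.30, edgeR adjusted p = 0.126). Liver fold changes were -0.29 for Tgfb1, -0.27 for Pdgfrb and 0.05 for Pdgfra (edgeR adjusted p = 0.362, 0.512 and 0.913).

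**Figure D3:**
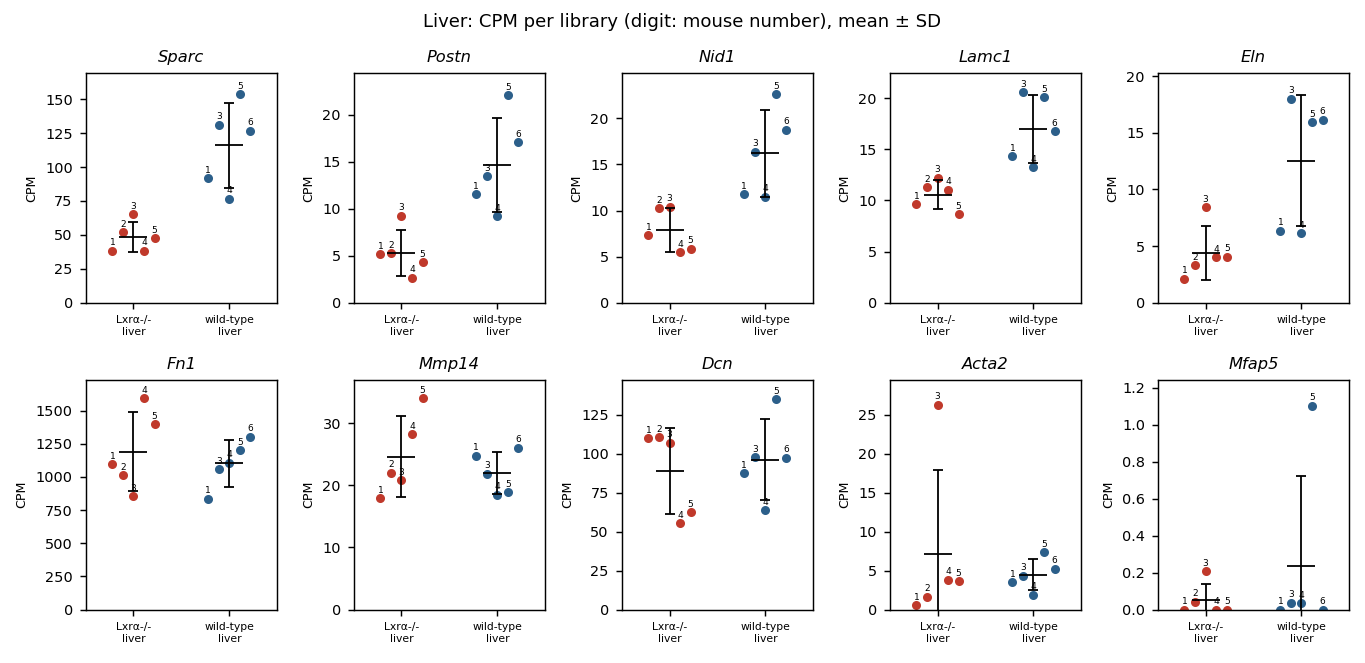
CPM per liver library (y axis, each from 0) for 10 of the genes, Lxrα-/- livers on the left and wild-type livers on the right of each panel, with the mouse number at each point and bars for mean ± SD (n = 5). Sparc, Nid1 and Lamc1 show no overlap between the groups, Fn1, Mmp14 and Dcn overlap throughout, Acta2 is set apart by Lxrα-/- liver 3 and Mfap5 by wild-type liver 5.

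Members low in liver were measured less firmly. Lox, Mfap5, Timp1 and Tagln did not pass the filter there and were not tested. Lox had 4, 5, 35, 5 and 8 counts in Lxrα-/- livers, against 9, 29, 6, 27 and 31 counts in wild-type livers. Mfap5 had 0, 1, 5, 0 and 0 counts in Lxrα-/- livers, against 0, 1, 1, 34 and 0 counts in wild-type livers, so that nearly all of its reads came from wild-type liver 5. Adipocyte markers summed to 3.86 to 5.80 CPM in Lxrα-/- livers, with a median of 5.18 CPM and a highest value of 81.2 CPM in wild-type livers. The highest was wild-type liver 5, and the part of these cells in the Mfap5 value was not tested. Of the tested members without a liver call, Fbn1, Loxl2 and Mmp2 had the most negative fold changes, at log2 fold change -1.02, SE 0.29, edgeR adjusted p = 0.0575 for Fbn1, log2 fold change -1.08, SE 0.34, edgeR adjusted p = 0.0821 for Loxl2 and log2 fold change -1.07, SE 0.36, edgeR adjusted p = 0.104 for Mmp2. The others lay between -0.74 (Thbs1) and 0.67 (Acta2).

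Whether the genotype difference depended on the tissue was tested in 1 fit of all 20 libraries, as the kidney difference minus the liver difference. Of the 37 genes, 2 had a lower value in kidney and 0 a higher one, beside 0.568% of all 17606 genes tested that were lower and 0.937% that were higher. The median difference was -0.68, against -0.04 over all genes, and 33 of 37 values were negative. Fn1 was lower in Lxrα-/- kidney and near 0 in liver (difference -2.04, SE 0.42, edgeR adjusted p = 0.0119), and Mmp14 had the same pattern (-1.93, SE 0.48, edgeR adjusted p = 0.0449). With the mouse as a block, since both organs came from mice of the same number, neither was called (Fn1 -1.83, edgeR adjusted p = 0.0673, Mmp14 -1.69, edgeR adjusted p = 0.114). The Fn1 call held in each of 20 fits without 1 library (highest edgeR adjusted p = 0.0304), and that of Mmp14 in 6 of 20 (highest edgeR adjusted p = 0.0929). Without wild-type kidneys 1 and 3 together, the Mmp14 difference was -1.32, SE 0.36, edgeR adjusted p = 0.0694. The Fn1 difference was smaller and still called without both (-1.45, SE 0.28, edgeR adjusted p = 0.00958). It was also smaller and called without wild-type kidney 3 alone (-1.55, SE 0.28, edgeR adjusted p = 0.00388). For the genes lower in both tissues the difference was -0.38 for Sparc (SE 0.32), -0.17 for Eln (SE 0.50), -0.26 for Lamc1 (SE 0.22) and -0.68 for Nid1 (SE 0.41), none of them called (edgeR adjusted p = 0.610, 0.911, 0.615 and 0.474). Timp3 had a positive difference of 1.23 (SE 0.56) that was not called (edgeR adjusted p = 0.342). Of the 13 genes called in kidney without a call in liver, Lox was not tested in liver. The tissue difference itself was thus called for Fn1 and Mmp14 only among the 13, and for these not with the mouse block.

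Levels per length, as FPKM (counts scaled by library size, TMM factor and gene length), set the tissues side by side in wild-type mice, as a description without a test. Of the 37 genes, 18 were higher in every wild-type kidney than in every wild-type liver, beside 23.5% of all 17606 genes. Another 5 were higher in every wild-type liver, beside 20.2% of all genes, and 14 overlapped. The kidney levels were led by Sparc (mean 56.9 FPKM), Timp3 (36.7), Acta2 (25.2), Fbln5 (15.3) and Bgn (14.1). Liver levels were led by Fn1 (117 FPKM), Sparc (38.0), Dcn (20.5), Bgn (13.1) and Tgfbi (12.8). Fn1 was 28.5-fold higher in liver than in kidney, where it averaged 4.10 FPKM, and Lum, Postn, Dcn and Tgfbi were 9.56-fold, 5.37-fold, 4.28-fold and 3.89-fold higher in liver. Timp3 was 42.8-fold higher in kidney than in liver, Thbs1 21.4-fold, Fbln5 14.6-fold and Lamb1 10.8-fold.

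**Figure D4:**
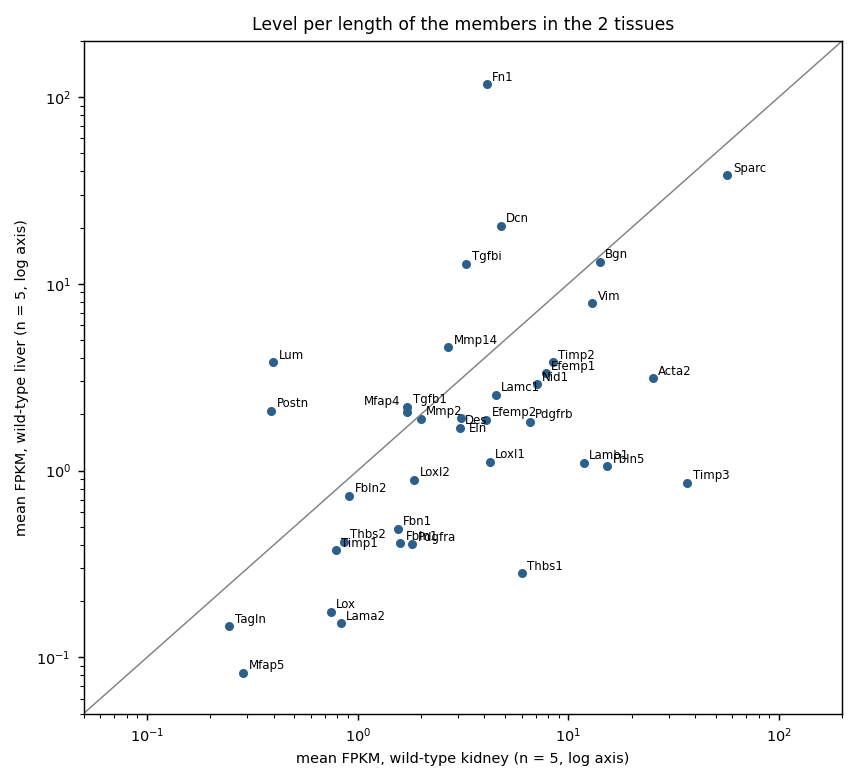
Mean FPKM of each of the 37 genes in wild-type kidney (x axis, log scale) and wild-type liver (y axis, log scale), n = 5 each, with a line where the tissues are equal. Fn1, Dcn, Tgfbi, Lum and Postn lie on the liver side, and Timp3, Thbs1, Fbln5 and Lamb1 are farthest on the kidney side.

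Within a group the members moved unevenly between mice. Lxrα-/- kidney 5 was the lowest of the 10 kidneys for 21 of the 37 genes, and Lxrα-/- kidney 3 the highest of its group for 19. Wild-type kidney 6 was the lowest of its group for 25, and wild-type kidney 3 the highest of all 10 for 15. Among the livers, Lxrα-/- liver 3 was the highest of its group for 27 genes, wild-type liver 5 the highest of all 10 for 15, and wild-type liver 4 the lowest of its group for 24. The median coefficient of variation over the genes was 31.8% in Lxrα-/- kidney, 34.2% in wild-type kidney, 41.3% in Lxrα-/- liver and 26.9% in wild-type liver. The number of members called lower in kidney was 24 without wild-type kidney 6, 10 without wild-type kidney 4 or 5, 9 without Lxrα-/- kidney 1 or 3 and 6 without Lxrα-/- kidney 4 or 5. Lower calls over all kidney genes moved with it, at 752 without wild-type kidney 6, 140 and 129 without wild-type kidney 4 or 5, 100 and 120 without Lxrα-/- kidney 1 or 3 and 75 and 80 without Lxrα-/- kidney 4 or 5, against 308 with all libraries. The number of members was 14 without wild-type kidneys 1 and 3 together, an alternative chosen after seeing the data. Sparc, Eln, Fbn1, Loxl2, Fbln1 and Mfap4 were called in each of the 10 kidney fits without 1 library (highest edgeR adjusted p = 0.0453). In liver, 12 members were lower without Lxrα-/- liver 3, 3 without wild-type liver 3 or 6, and 1, Sparc, without Lxrα-/- livers 4 and 5 together, also chosen after seeing the data. Lower calls over all liver genes were 618 without Lxrα-/- liver 3, 434 and 386 without wild-type liver 3 or 6 and 420 without Lxrα-/- livers 4 and 5, against 605 with all libraries.

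**Figure D5:**
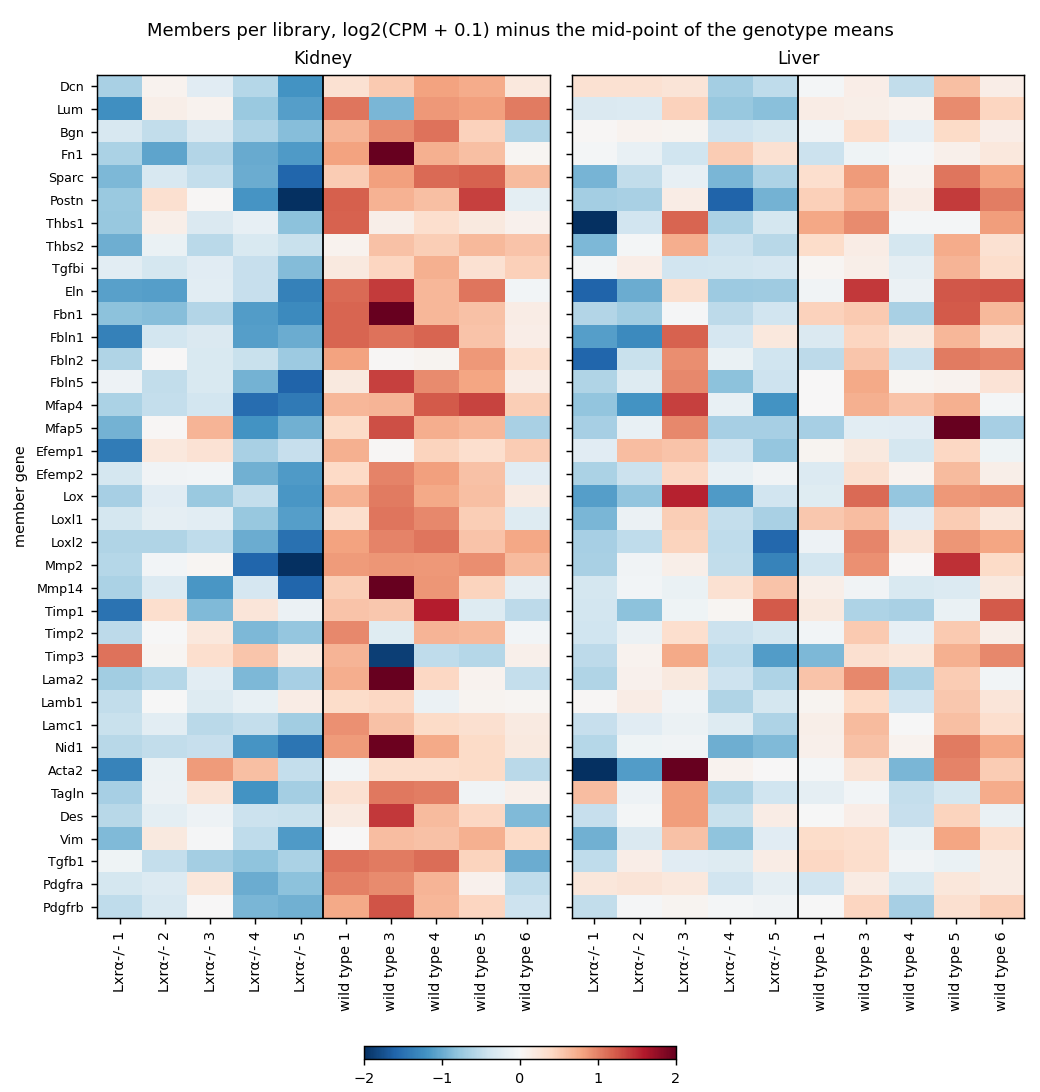
Each of the 37 genes (rows) in each library (columns, Lxrα-/- then wild type, kidney on the left and liver on the right), as log2(CPM + 0.1) minus the mid-point of the 2 genotype means, on a colour scale from -2 to 2 beyond which colours do not change. Lxrα-/- kidneys are mostly blue and wild-type kidneys mostly red, with Timp3 and Acta2 as exceptions, and Lxrα-/- liver 3 is red for many genes.

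Genes of the same pathways outside the set were read as whole lists. Of all kidney genes tested, 1.87% were called lower and 0.394% higher, and 14.0% and 5.81% at an unadjusted p under 0.05. The liver shares were 4.08% and 1.94% called, and 11.5% and 8.76% at an unadjusted p under 0.05. Of 25 other genes of transforming growth factor beta signalling that were tested in kidney, 2 were lower and 0 higher, with a median of -0.49, and at an unadjusted p under 0.05 there were 10 lower and 1 higher. The 2 called genes were Ltbp4, which anchors the latent ligand to microfibrils (-1.56, SE 0.35, edgeR adjusted p = 0.0369), and Tgfb2, a ligand (-1.29, SE 0.29, edgeR adjusted p = 0.0370). In liver 1 of 23 (4.35%) was lower, a share near that of all genes. It was the receptor Tgfbr2 (-0.93, SE 0.20, edgeR adjusted p = 0.0144). The liver median of this list was -0.08, with 4 lower and 0 higher at an unadjusted p under 0.05. The 4 platelet-derived growth factor ligands had no call in either tissue (medians -0.07 in kidney and -0.005 in liver, with 1 lower in kidney and 0 in liver at an unadjusted p under 0.05). Of 31 other matrix and crosslinking genes in kidney, 2 were lower, the microfibril genes Mfap2 (-1.56, edgeR adjusted p = 0.0332) and Emilin1 (-1.29, edgeR adjusted p = 0.0457), and the median was -0.73. At an unadjusted p under 0.05, 16 of the 31 were lower and 0 higher. In liver 0 of 25 were called, 5 were lower and 1 higher at an unadjusted p under 0.05, and the median was -0.19. Of 12 other matrix protease genes, 1 was lower in each tissue, Adamts2, which trims procollagen (kidney -1.58, edgeR adjusted p = 0.0123, and liver -0.88, edgeR adjusted p = 0.0224). At an unadjusted p under 0.05, 8 of these 12 were lower and 0 higher in kidney, and 2 lower and 1 higher in liver. For comparison, 7 of 8 fibrillar and type VI collagen chains were lower in kidney (median -2.32) and 6 of 8 in liver (median -1.03).

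Cell markers were read beside these results, and their part in them was not tested. Of all kidney genes tested, 1.87% were called lower and 0.394% higher, and 14.0% and 5.81% at an unadjusted p under 0.05. The liver shares were 4.08% and 1.94% called, and 11.5% and 8.76% at an unadjusted p under 0.05. In kidney no list of stromal cell markers had a called member. The 8 pericyte and mesangial markers summed to 126.6 to 181.7 CPM in Lxrα-/- kidneys, against 212.1 to 316.8 CPM in wild-type kidneys, without overlap of the sums, and 7 of 8 were lower at an unadjusted p under 0.05. Taken singly, 0 of the 8 had every Lxrα-/- kidney below every wild-type kidney, beside 4.13% of all kidney genes tested. The 9 fibroblast markers summed to 28.0 to 48.8 CPM in Lxrα-/- kidneys, against 51.5 to 73.5 CPM in wild-type kidneys, also without overlap of the sums, and 5 of 9 were lower at an unadjusted p under 0.05. Taken singly, 3 of the 9 had every Lxrα-/- kidney below every wild-type kidney. Among markers of non-stromal cells, 10 endothelial markers summed to 125.6 to 297.9 CPM in Lxrα-/- kidneys, against 313.7 to 370.0 CPM in wild-type kidneys, without overlap. Of these 10, 1 was called (Cdh5, -1.08, edgeR adjusted p = 0.0402), 8 were lower at an unadjusted p under 0.05 and all 10 had negative values. Taken singly, 3 of the 10 had every Lxrα-/- kidney below every wild-type kidney. Podocyte markers summed to 96.1 to 336.6 CPM in Lxrα-/- kidneys, against 276.2 to 420.3 CPM in wild-type kidneys, and macrophage markers to 109.0 to 194.0 CPM in Lxrα-/- kidneys, against 150.6 to 190.4 CPM in wild-type kidneys, with 0 of 8 and 0 of 10 called and 5 of each lower at an unadjusted p under 0.05. Proximal tubule markers summed to 46160 to 60660 CPM in Lxrα-/- kidneys, against 26850 to 41700 CPM in wild-type kidneys, without overlap in the other direction. Their median fold change in kidney was 0.40, with 11 of 12 values positive, 1 of 12 higher, and 3 higher at an unadjusted p under 0.05. Proliferation markers were lower for 5 of 8 in kidney (median -1.52) and 4 of 8 in liver (median -1.25), and at an unadjusted p under 0.05 for 7 and 6. Smooth muscle markers had no call in 5 tested kidney genes (1 lower at an unadjusted p under 0.05). Adipocyte and urothelial markers had none in 2 and 5, with 0 at an unadjusted p under 0.05 in each. Lxrα-/- kidney 3 had the highest adipocyte sum of its group, at 32.7 CPM, against at most 7.08 CPM in wild-type kidneys. It also had the highest urothelial sum, at 26.7 CPM, against at most 15.6 CPM in wild-type kidneys.

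In liver, the 8 hepatic stellate cell markers, those of the main matrix-producing cell of that organ, summed to 109.5 to 220.0 CPM in Lxrα-/- livers, against 144.2 to 231.2 CPM in wild-type livers, with 0 called, 1 lower at an unadjusted p under 0.05 and a median of -0.10. Over all liver genes, 4.08% were called lower and 1.94% higher, and 11.5% and 8.76% at an unadjusted p under 0.05. Endothelial markers summed to 71.5 to 167.8 CPM in Lxrα-/- livers, against 118.1 to 170.0 CPM in wild-type livers. Of these markers, 1 of 10 was lower (Cdh5, -0.90, edgeR adjusted p = 0.0340), and 2 of 10 at an unadjusted p under 0.05. Of 7 fibroblast markers tested, 0 were lower and 2 higher, the noncoding RNA Meg3 (5.31, edgeR adjusted p = 0.000151) and the ferritin receptor Scara5 (3.08, edgeR adjusted p = 0.0168), with 1 lower and the same count of 2 higher at an unadjusted p under 0.05. Among macrophage markers 1 of 10 was lower (Adgre1, -1.26, edgeR adjusted p = 0.0126), and among hepatocyte markers 1 of 10 (Alb, -0.75, edgeR adjusted p = 0.0435). At an unadjusted p under 0.05, 5 macrophage markers were lower and 0 higher, and 1 hepatocyte marker was lower and 2 higher. The median fold change of the 10 hepatocyte markers was -0.0008, with 5 values negative and 5 positive, although their sums were lower in Lxrα-/- livers. Without TMM scaling the calls over all liver genes were 766 lower and 216 higher, against 605 lower and 288 higher with it, and 6 members were lower and 0 higher, the 5 already named with Fbn1.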

How the data were processed

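Total RNA was extracted with Trizol and 3 ug per library entered the NEBNext Ultra kit for sequencing on an Illumina HiSeq instrument, per the labels' protocols. HISAT2 2.0.5, StringTie, DESeq2 1.16.1 and genome build mm10 are named in the submitters' processing notes, with no role or order. The counting tool and the use of strand are not given in the sources used here. The authors deposited raw counts per gene for 54532 genes and a table of log2 FPKM values for the 15454 genes counted in each of the 20 libraries. The counts entered the main tests and the deposited log2 FPKM values 1 alternative.

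Libraries were grouped as labelled. A separate fit per tissue used edgeR 4.0.16 (R 4.3.3; filterByExpr with a minimum count of 10, TMM, quasi-likelihood test, Benjamini-Hochberg over all genes, called under 0.05), and the tissue difference in a fit of all 20 libraries. Standard errors were computed from the fold change and its F statistic. CPM used library size times TMM factor per tissue, and FPKM the factors of all 20 libraries and the gene lengths in the count table. Alternatives were DESeq2 1.42.0, its size factors in edgeR, no TMM, other filters on low counts, limma 3.58.1 (voom with quality weights, and limma-trend), all 20 libraries in 1 fit, blocks by title number or by mouse, and leaving out each library. The block by title number used only numbers found in both genotypes, without wild-type mouse 6 and Lxrα-/- mouse 2. Leaving out wild-type kidneys 1 and 3, Lxrα-/- livers 4 and 5, or mitochondrially encoded genes was chosen after seeing the data. Organs with the same genotype and number in their titles were treated as those of 1 mouse, an assumption, since only the titles carry the number.

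The members and lists were chosen with earlier results of these data known. All 37 members are named by role, and of each other list up to 4 genes with the smallest p per tissue, and 221 of 224 listed symbols were in the table. Within a tissue each library has its own number in the titles and was taken as 1 mouse. The p-values set a difference against the spread between these libraries. Precision is limited by counting error at low counts and by the 5 mice per group. The code was tested on simulated counts.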

Additional observations from a re-analysis of the deposited data

Results flagged for a closer look

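Of 148 groups of 5 libraries (37 genes in 4 groups), 16 held 1 library whose gap to the nearest other exceeded Dixon's critical value of 0.71 of the group's range. Chance gives about 1 in 20. None was in Lxrα-/- kidney, 8 in Lxrα-/- liver, 6 in wild-type kidney and 2 in wild-type liver.

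Among wild-type kidneys, number 3 was far above the others for Fn1 (134.1 CPM, others up to 50.2), Nid1 (123.0 CPM, others up to 57.3), Mmp14 (49.0 CPM, others up to 17.7) and Lama2 (44.2 CPM, others up to 14.8), and far below them for Lum (0.323 CPM, others from 1.30). This library had 50.8% of its counts on mitochondrially encoded genes, and the part of that in these values was not tested. Wild-type kidney 1 was high for Thbs1 (76.5 CPM, others up to 42.4).

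Lxrα-/- liver 3 was the highest of its group for Acta2 (26.3 CPM, others up to 3.82), Fbln5 (9.63 CPM, others up to 4.07), Mfap4 (6.20 CPM, others up to 2.11), Thbs1 (2.15 CPM, others up to 0.694), Lox (1.45 CPM, others up to 0.309) and Mfap5 (0.207 CPM, others up to 0.0419). Its smooth muscle markers summed to 37.3 CPM, beside 8.11 to 16.3 CPM in wild-type livers, and their part was not tested. Lxrα-/- liver 5 was high for Timp1 (0.656 CPM, others up to 0.231), and Lxrα-/- liver 1 was low for Pdgfrb (5.05 CPM, others from 6.83). Wild-type liver 5 was high for Mfap5 (1.10 CPM, others up to 0.0367), and wild-type liver 6 for Tagln (0.460 CPM, others up to 0.221).

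The genotype difference of Fn1 was lower in kidney than in liver by the test of the difference itself (-2.04, edgeR adjusted p = 0.0119), as was that of Mmp14 (-1.93, edgeR adjusted p = 0.0449). Without wild-type kidney 3 these values were -1.55 for Fn1 and -1.34 for Mmp14. With the mouse as a block neither was called (edgeR adjusted p = 0.0673 for Fn1 and 0.114 for Mmp14), and the Mmp14 call was kept in 6 of 20 fits without 1 library.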

How the results depend on the processing

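In kidney, 17 members were lower with the main settings. The count was 25 with DESeq2, 29 with limma voom (and 1 higher, Timp3) and 13 with limma-trend. It was 26 with a replicate block by title number, and ran from 6 to 24 without 1 library. That block kept only numbers found in both genotypes, so wild-type mouse 6 and Lxrα-/- mouse 2 were left out in each tissue. Without wild-type kidney 6 alone the count was 24. The effect of blocking thus cannot be told apart from that of the libraries left out. In liver the 5 lower members became 8 with DESeq2, 8 with no filter beyond 1 count, 2 with the replicate block by title number, 1 without Lxrα-/- livers 4 and 5, and 3 to 12 without 1 library. For the tissue difference, 2 became 4 with limma voom, 1 with limma-trend, 0 with the replicate block by mouse, 1 without wild-type kidneys 1 and 3, and 1 to 4 without 1 library. Over all genes the kidney calls were 308 lower and 65 higher, against 837 and 306 with DESeq2 and 1350 and 801 with limma voom. Lower kidney calls over all genes were 196 with limma-trend and 725 with the block by title number. Lower liver calls over all genes were 605, against 870 with DESeq2, 712 with no filter beyond 1 count and 184 with that block. Lower calls over all genes for the difference were 100, against 245 with limma voom, 62 with limma-trend and 67 with the block by mouse. Without wild-type kidneys 1 and 3 they were 93. Deviations of equal title numbers correlated at 0.09 to 0.23 in kidney and -0.05 to 0.0007 in liver. Unequal numbers were not compared, so these values cannot tell whether the number pairs mice of different genotype. Deviations of kidney and liver of 1 mouse correlated at -0.15 to 0.37.

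Single members changed sign under some settings. In kidney, Acta2 was 0.0180 with no filter beyond 1 count and ran from -0.32 to 0.17 without 1 library. In liver, Efemp1 was 0.0137 with DESeq2, 0.0128 with its size factors, 0.28 with voom, 0.00345 with all 20 libraries, 0.32 without Lxrα-/- livers 4 and 5 and 0.0166 without mitochondrially encoded genes. Acta2 was -0.44 with voom and -0.36 with limma-trend. Fn1 was -0.0551 with voom and -0.15 without Lxrα-/- livers 4 and 5, where Mmp14 was -0.11 and Dcn 0.19, and Dcn was 0.23 with voom. Without TMM, Pdgfra was -0.0309 and Des -0.0210. Lowest and highest values without 1 library in liver were -0.88 and 0.98 for Acta2, -0.22 and 0.0402 for Dcn, -0.21 and 0.19 for Des, -0.19 and 0.15 for Efemp1, -0.0140 and 0.21 for Fn1, and -0.0292 and 0.15 for Pdgfra. For the difference, Eln was 0.12 without wild-type kidneys 1 and 3, and -0.36 to 0.20 without 1 library. The cause was not tested. Of the member fold changes under all alternatives, 638 in kidney kept direction and side of the threshold, 55 gained a call, 72 lost one and 7 changed sign. In liver these numbers were 629, 17, 18 and 29, and for the named differences 295, 3, 18 and 3. Values DESeq2 gave as missing were left out. At 0 to 35 counts in liver, Lox, Mfap5, Timp1 and Tagln did not pass the filter on low counts.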
